A study of Drosophila melanogaster with 10 samples.

Results

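The 44 genes described here encode the machinery that copies DNA and the machinery that divides chromosomes. They were chosen by name, with earlier results of these data known, 19 for DNA replication and 25 for mitosis. All 44 were among the 7624 genes measured. The cells were ML-DmBG3-c2, a cultured line from the central nervous system of Drosophila larvae, grown in medium with serum and insulin. They had been mock-treated, or treated with double-stranded RNA against Polyhomeotic (Ph) or its partner Sce, the fly homolog of RING1, with a mixture of double-stranded RNAs per target in most experiments. Ph and Sce belong to Polycomb repressive complex 1, best known for keeping developmental genes silent. Nascent RNA, which is still bound to chromatin while it is made, was sequenced in 10 libraries: 3 mock, 3 with the label Ph RNAi and 4 with the label Sce RNAi. The values are the authors' mean signal per group. The authors' deposited table also gives a ratio to mock with its p and q, and the same for total RNA in libraries outside these 10, made after RNAi against Ph, Sce or Pc, another subunit of the complex.

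DNA replication starts at origins marked by the origin recognition complex, where Dup (the fly Cdt1) helps to load the ring of MCM proteins that unwinds the DNA. Geminin holds Dup back so that an origin does not fire again in the same cycle, Cyclin E drives entry into S phase, and the GINS complex joins the MCM ring when it becomes active. Mitosis is set in motion by Cyclins A, B and B3 with the phosphatase String, is guarded by the spindle checkpoint until chromosomes are attached, and proceeds when the anaphase-promoting complex lets sister chromatids part. These genes are transcribed in cycling cells, and E2F factors are known to act on many of the replication genes.

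The targeted genes were higher, not lower, than mock under the labels that name them. The nascent mean of ph-p was 18685 in mock and 90923 in the libraries labelled Ph RNAi, that of ph-d was 10729 and 57853, and that of Sce was 2475 in mock and 293193 in the libraries labelled Sce RNAi. Each targeted gene was higher under its own label, also in total RNA, where the authors' deposited table lists ratios of 8.64 for ph-p, 8.09 for ph-d, 27.0 for Sce and 21.5 for Pc. Every direction below rests on these labels. The nascent columns summed to between 191793598 and 192278102, so a rise or fall of all transcription cannot be seen. Depth and values per library are unknown, and the labels do not say whether replicates were separate cultures. The authors' p and q are the only measures of replicate error. The verbs rose and fell are kept for genes with that q under 0.05. Of 10 listed symbols of neuronal markers, only elav and cac were measured, with mock means of 9594 and 51705.

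The first comparison asked what happened to these genes under Ph RNAi. Nascent RNA in these libraries was lower than in mock for nearly the whole group, by 1.59-fold to 2.23-fold for the MCM helicase genes and by 2.37-fold for the checkpoint gene BubR1. Of the 44 genes 40 had a ratio below 1, as did 47.5% of all genes. The median log2 ratio was -0.50 for the 44, -0.52 for the 19 replication genes and -0.46 for the 25 mitosis genes, against 0.023 for all 7624. With a pseudocount 10 times larger these members' medians were -0.28, -0.22 and -0.31. In bulk RNA, fewer cells in S phase or mitosis and less RNA per cell cannot be told apart.

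No single member passed the threshold. By the q of the authors' deposited table, 0 of 44 fell, where 0.787% of all genes did, and 0 rose, where 1.69% did. Before adjustment, the authors' deposited table gave 20 of 44 a p below 0.05 and a lower mean, where 6.66% of all genes had these, and 0 such a p and a higher mean, where 9.82% had. These 20 were 9 of 19 replication genes and 11 of 25 mitosis genes. The mean was over 1.5-fold lower for 22 of 44, where this held for 13.2% of all genes. The authors' deposited table gave the smallest q to BubR1 (0.053), CycB (0.055), SMC2 (0.058), thr (0.073) and Mcm5 (0.093).

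**Figure D1:**
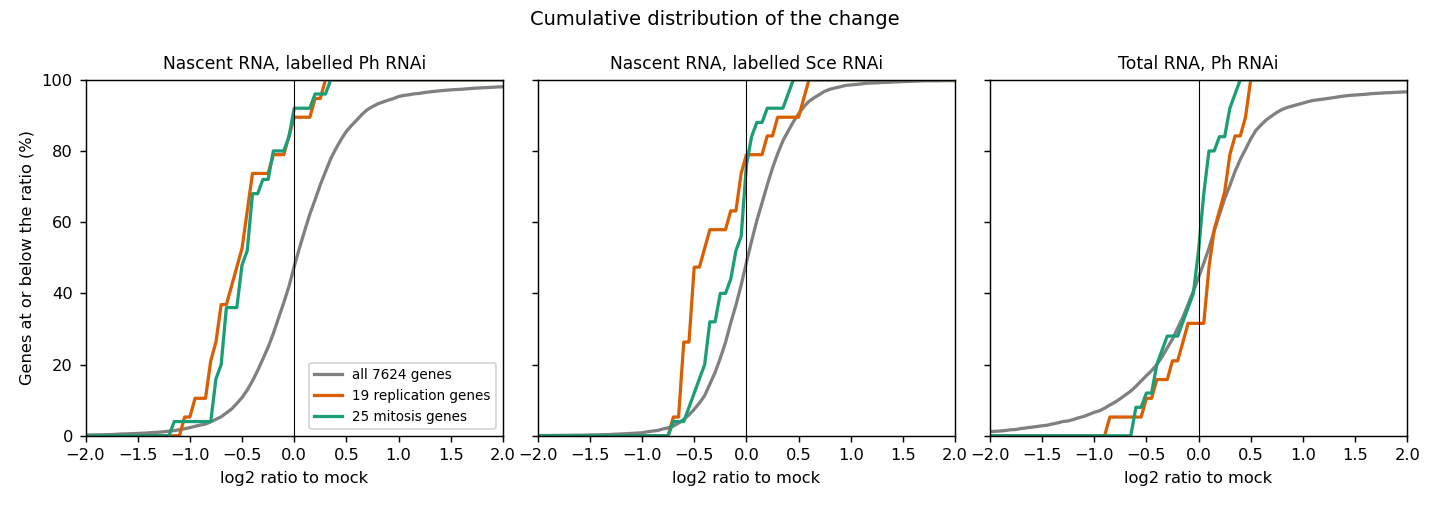
Cumulative share of genes (%) at or below each log2 ratio to mock, for all 7624 genes (grey), the 19 replication genes (orange) and the 25 mitosis genes (green), in nascent RNA of the libraries labelled Ph RNAi (left) and Sce RNAi (middle) and in total RNA after Ph RNAi (right). The orange and green curves lie left of the grey curve over most of the left panel, with medians of -0.52 and -0.46 against 0.023, and their medians in the right panel are 0.13 and 0.00 against 0.068.

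The genes of the MCM helicase, the ring that unwinds DNA, all had lower means in both RNAi groups. Mcm7 had an authors' mean of 13360 in mock, 5981 in the libraries labelled Ph RNAi and 9159 in those labelled Sce RNAi. Mcm2 had 17168 in mock, 8311 under Ph RNAi and 10187 under Sce RNAi. Mcm6 had 26876, 14857 and 18404 in the same order. For these 3 genes the Ph RNAi mean was the lowest and the Sce RNAi mean lay between it and mock. Mcm3 had 16178 in mock, 8827 under Ph RNAi and 10460 under Sce RNAi. Mcm5 had 10070, 5569 and 7474. For dpa, which encodes the fly Mcm4, the RNAi means were nearly equal, at 10598 for Ph and 10790 for Sce against 16800 in mock. The Ph RNAi ratios of the 6 ranged from 0.448 for Mcm7 to 0.631 for dpa. Except for Mcm3 at 0.087, each had p below 0.05 before adjustment, and the lowest q was that of Mcm5, 0.093, by the authors' deposited table.

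Genes of the origin recognition complex, which marks where replication can start, lay closer to mock, with Ph RNAi ratios from 0.663 to 0.718. Orc2 had a mean of 2824 in mock, 1871 under Ph RNAi and 2477 under Sce RNAi. Orc5 had 3857, 2577 and 2835. The authors' deposited table gave both p = 0.048 and q = 0.197 for Ph RNAi, and no other gene of the complex had p below 0.05 there. Orc1 had 5816 in mock, 4174 under Ph RNAi and 5785 under Sce RNAi. The gene listed as lat, in RefSeq an older name of Orc3 and also of et, had 3129, 2217 and 1989. Orc6 had 549 in mock, 376 under Ph RNAi and 715 under Sce RNAi. Orc6 was thus the only gene of the 5 with a mean above mock under Sce RNAi, from a low signal and with p = 0.566 in the authors' deposited table.

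Among the genes that license origins and start S phase, 2 were lower than mock under Ph RNAi and the inhibitor was not. CycE, the gene of Cyclin E, had 55615 in mock, 33919 under Ph RNAi and 39097 under Sce RNAi. The authors' deposited table gave it p = 0.016 and q = 0.118 for Ph RNAi. The loading factor gene dup had 4032 in mock, 2510 under Ph RNAi and 3822 under Sce RNAi, with p = 0.053 for Ph RNAi in the authors' deposited table. The inhibitor gene geminin had 1515, 1773 and 2393. Its p was 0.714 for Ph RNAi and 0.412 for Sce RNAi by the authors' deposited table, and its difference from dup was not tested.

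The genes that supply nucleotides and hold the polymerase differed from one another. RnrL, the large subunit of ribonucleotide reductase, had 25168 in mock, 15004 under Ph RNAi and 16024 under Sce RNAi. The small subunit gene RnrS had 7227, 7071 and 6844. The subunits of 1 enzyme were thus 1.68-fold and 1.02-fold lower under Ph RNAi, with p = 0.040 for RnrL and p = 0.758 for RnrS in the authors' deposited table. The sliding clamp gene mus209, now named PCNA, had 3807 in mock, 3623 under Ph RNAi and 4753 under Sce RNAi. Of the genes of GINS, which joins the active helicase, Psf2 had 720 in mock, 324 under Ph RNAi and 269 under Sce RNAi. Sld5 had 637, 899 and 1259. Both RNAi means were below mock for Psf2 and above it for Sld5, at low signal and with no p below 0.2 in the authors' deposited table.

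**Figure D2:**
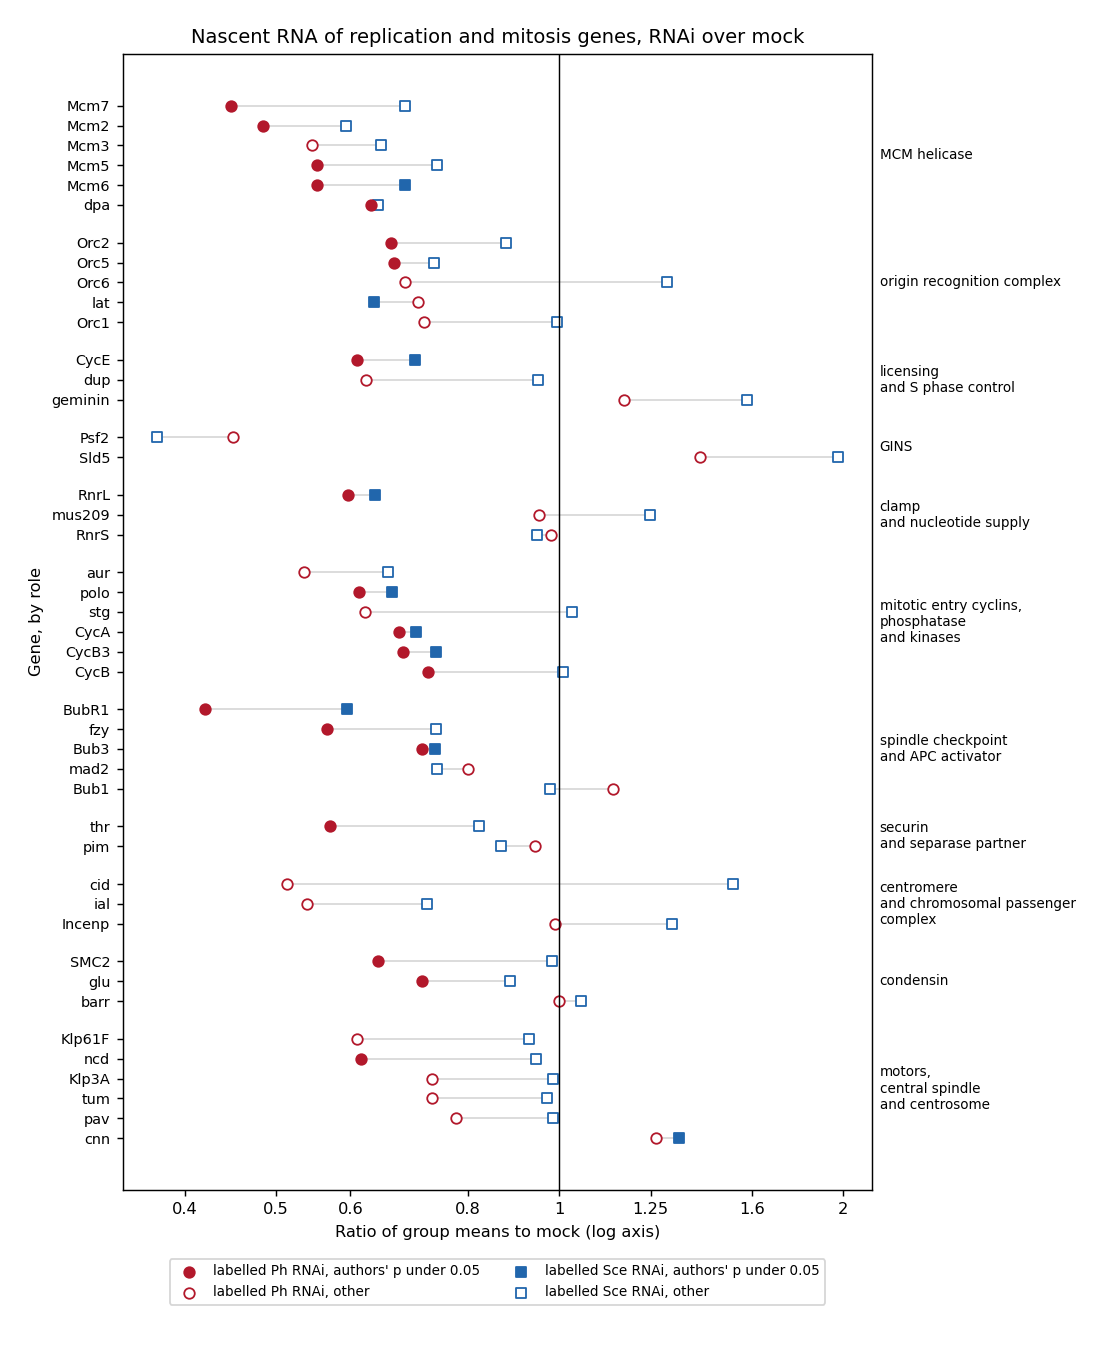
Ratio of the nascent RNA group mean to the mock mean (log axis) for each of the 44 genes, grouped by role, in the libraries labelled Ph RNAi (red circles) and Sce RNAi (blue squares); filled symbols had p below 0.05 before adjustment in the authors' deposited table. Of the red circles 40 lie left of 1 and 20 are filled, and of the blue squares 34 lie left of 1, with 9 filled there and that of cnn filled on the right.

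The 6 genes of mitotic entry all had lower means in the libraries labelled Ph RNAi. CycB, the gene of the main mitotic cyclin, had 16661 in mock, 12094 under Ph RNAi and 16818 under Sce RNAi. CycA, a cyclin gene of S phase and mitotic entry, had 17964, 12131 and 12646. CycB3, a cyclin gene of late mitosis, had 7045, 4811 and 5203. For CycA and CycB3 both RNAi means lay below mock, while for CycB the Sce RNAi mean was at mock. The Ph RNAi difference of CycB was 1.38-fold, with p = 0.003 in the authors' deposited table. The mitotic kinase gene polo had 14821 in mock, 9086 under Ph RNAi and 9839 under Sce RNAi. The Aurora A kinase gene aur had 4353, 2327 and 2861. The phosphatase gene stg (string) had 22644 in mock, 14074 under Ph RNAi and 23334 under Sce RNAi. For Ph RNAi the authors' deposited table gave p = 0.017 for polo, 0.131 for aur and 0.051 for stg. Under Sce RNAi CycB and stg were at 1.01 and 1.03 times mock, and both came out just below mock when the columns were quantile-normalized.

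The spindle checkpoint genes spread from the lowest Ph RNAi ratio of the 44 to above mock. BubR1, which delays anaphase until kinetochores are attached, had 16254 in mock, 6849 under Ph RNAi and 9671 under Sce RNAi. The authors' deposited table gave it p = 0.002 for Ph RNAi and p = 0.008 for Sce RNAi. Its partner gene Bub3 had 6071, 4335 and 4473. Another checkpoint gene, mad2, had 1237 in mock, 988.5 under Ph RNAi and 917 under Sce RNAi. The kinase gene Bub1 had 4512, 5142 and 4403, the only one of the checkpoint genes above mock under Ph RNAi, with p = 0.443 in the authors' deposited table. The gene fzy, the fly Cdc20 that activates the anaphase-promoting complex, had 10851 in mock, 6136 under Ph RNAi and 8025 under Sce RNAi. For fzy the authors' deposited table gave p = 0.013 and q = 0.111 for Ph RNAi.

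Genes for parting and packing chromosomes were lower than mock or at it. The gene thr, whose product works with separase, had 10484 in mock, 5985 under Ph RNAi and 8619 under Sce RNAi. The securin gene pim had 1065, 1004 and 922. The Ph RNAi p was 0.005 for thr and 0.794 for pim by the authors' deposited table. Of the condensin genes, whose products compact chromosomes, SMC2 had 3967 in mock, 2544 under Ph RNAi and 3897 under Sce RNAi. The gene glu, the fly SMC4, had 11616, 8289 and 10286. The condensin gene barr had 4770, 4767 and 5023. SMC2 and glu were thus lower under Ph RNAi, with p = 0.003 and p = 0.016 in the authors' deposited table, and barr was at 0.999 of mock.

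Centromere and passenger complex genes had p above 0.05 throughout nascent RNA in the authors' deposited table. The Aurora B kinase gene ial had 3620 in mock, 1951 under Ph RNAi and 2621 under Sce RNAi. Its partner gene Incenp had 6085, 6024 and 8004. The gene of the centromeric histone, cid, had 225 in mock, 116 under Ph RNAi and 344 under Sce RNAi. For ial the Ph RNAi mean was 1.86-fold lower than mock, with p = 0.055 in the authors' deposited table, while Incenp was at 0.990 of mock.

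Of the spindle motor and scaffold genes, 5 of 6 were lower than mock under Ph RNAi and near it under Sce RNAi. Klp61F, the kinesin that pushes spindle poles apart, had 24032 in mock, 14626 under Ph RNAi and 22298 under Sce RNAi. The gene of the minus-end motor Ncd, ncd, had 10082, 6211 and 9532. The chromokinesin gene Klp3A had 29309, 21481 and 28859. In the authors' deposited table the Ph RNAi p of ncd, 0.039, was the only one of the group below 0.05, with 0.052 for Klp61F and 0.068 for Klp3A. Of the genes of centralspindlin, which organises the midzone for cytokinesis, pav had 8614 in mock, 6688 under Ph RNAi and 8473 under Sce RNAi, and tum had 14520, 10638 and 14063. The centrosome scaffold gene cnn was above mock in both RNAi groups, at 43138 in mock, 54634 under Ph RNAi and 57756 under Sce RNAi. The authors' deposited table gave cnn p = 0.065 for Ph RNAi and p = 0.012 for Sce RNAi.

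Other genes of these processes were counted from separate lists. Of 34 further replication genes 28 had a ratio below 1 under Ph RNAi, with a median log2 ratio of -0.36. By the authors' deposited table, 8 were lower with p below 0.05 before adjustment and none was higher, beside shares of 6.66% and 9.82% over all genes. Where 0.787% of all genes fell by q, 1 gene of the 34 did. That gene was Ts, thymidylate synthase, which makes the thymidine nucleotide of DNA. Ts had 5984 in mock, 2116 under Ph RNAi and 3702 under Sce RNAi, and it fell 2.83-fold under Ph RNAi with q = 0.044 in the authors' deposited table. By Benjamini-Hochberg adjustment of the authors' p its value was 0.066, which ends that call. RpA-70, whose product coats single-stranded DNA, had 13308 in mock and 8352 under Ph RNAi. The replicative polymerase gene DNApol-epsilon had 22240 and 9941, and timeout had 96054 and 61185. The authors' deposited table gave these 3 genes q = 0.054, 0.111 and 0.08.

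Of 84 further mitosis genes 59 had a ratio below 1 under Ph RNAi, with a median log2 ratio of -0.25. By the authors' deposited table, 14 were lower and 3 higher with p below 0.05 before adjustment, against 6.66% and 9.82% of all genes. None passed on q, where 0.787% of all genes fell and 1.69% rose. The condensin gene CAP-D2 was 2.10-fold lower, the cohesin gene SA 2.03-fold lower and cort, which encodes a germ line activator of the anaphase-promoting complex, 4.84-fold lower. The signal of cort was low, at 1267 in mock and 262 under Ph RNAi, and its log2 ratio with the pseudocount was -1.13. The kinesin gene Klp98A was 3.86 times mock. Of 11 regulators from E2F, Rb and the Myb-MuvB complex 9 had a ratio below 1, with a median log2 ratio of -0.18. The authors' deposited table had Rbf2 lower and mip40 higher among them with p below 0.05 before adjustment, at 1.85-fold lower and 1.90 times mock. The gene E2f itself had 106302 in mock and 104985 under Ph RNAi. Of 20 regulators of G1 and of checkpoints 12 had a ratio below 1, with a median of -0.21. Among these Cdk4 and mre11 were lower by that p in the authors' deposited table, at 1.45-fold and 1.43-fold.

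The genes lie on all large chromosome arms, with 10 on 2L, 16 on 2R, 6 on 3L, 9 on 3R and 3 on X in the reference annotation. The nearest other measured genes on either side of the members, 88 in all, had a median log2 ratio of -0.062 under Ph RNAi. By the authors' deposited table, 4 of these neighbours were lower and 9 higher with p below 0.05 before adjustment, near the shares of 6.66% and 9.82% over all genes. Among the 4 were RpA-70, itself a replication gene next to Mcm2, and egh next to Klp3A, which fell with q = 0.017 in the authors' deposited table. The signals of Mcm7 and lat are uncertain in origin, since in the annotation an antisense RNA gene overlaps 81.2% of Mcm7 and CG34315 spans the whole of lat on the same strand. How the authors treated strand is not stated in the material used here. Across the 44 genes the Ph RNAi log2 ratio had a Spearman rho of -0.21 with gene model length and of -0.42 with mean signal, a description of genes that share the same libraries. The pseudocount in these log2 ratios understates changes of low genes, which can itself add to the rho with mean signal.

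The next comparison took the libraries labelled Sce RNAi against mock. The MCM genes, RnrL, CycE, polo, CycA and BubR1 were again below mock, while condensin and motor genes lay near it. Of the 44 genes 34 had a ratio below 1, as did 48.5% of all genes, and 9 were over 1.5-fold lower, as were 9.69% of all genes. The median log2 ratio was -0.16 for the 44, -0.40 for replication and -0.11 for mitosis genes, against 0.0094 for all genes. By the q of the authors' deposited table none of the 44 fell, where 0.0525% of all genes did, and none rose, where 0.0656% did, the smallest q being 0.149 for Bub3. Before adjustment, the authors' deposited table gave 9 of 44 a p below 0.05 and a lower mean, where 5.29% of all genes had these, and 1 such a p and a higher mean, where 4.62% had. The 9 were Mcm6, lat, CycE, RnrL, BubR1, Bub3, polo, CycA and CycB3, at 1.35-fold to 1.68-fold lower, and the 1 was cnn.

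By role, the median log2 ratio under Sce RNAi was -0.57 for the MCM genes, -0.44 for mitotic entry, -0.40 for the checkpoint group, -0.15 for the origin recognition complex, -0.033 for motors and scaffolds and -0.022 for condensin. The same medians under Ph RNAi were -0.83, -0.60, -0.44, -0.43, -0.43 and -0.46. For the roles with 2 or 3 genes besides condensin, the Sce RNAi medians were 0.20 for centromere and passenger genes, -0.0098 for GINS, -0.067 for licensing, -0.072 for clamp and nucleotide supply and -0.20 for pim with thr. Their Ph RNAi medians were -0.21, -0.12, -0.58, -0.062 and -0.40. Both comparisons share the mock libraries, so they are not independent of each other. Of the further genes, 6 of 34 for replication and 11 of 84 for mitosis were lower under Sce RNAi with p below 0.05 before adjustment in the authors' deposited table, and 0 and 1 were higher, where 5.29% of all genes were lower and 4.62% higher. The replication genes included Ts, 1.62-fold lower, the chromatin assembly gene Caf1, 1.56-fold lower, and timeout, 1.40-fold lower. The mitosis genes included shtd, of the anaphase-promoting complex, 1.74-fold lower, CAP-D2, 1.70-fold lower, the checkpoint kinase gene grp, 1.33-fold lower, and the centriole kinase gene SAK, 1.95-fold lower. Of the regulators, Rbf2 was 1.93-fold and Cdk4 1.40-fold lower under Sce RNAi.

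Setting the Ph RNAi and Sce RNAi means against each other does not use the mock libraries. Of the 44 genes 38 had a lower mean under Ph RNAi than under Sce RNAi, as did 49.6% of all genes. The median log2 ratio was -0.32, with -0.30 for replication and -0.34 for mitosis genes, against 0.0031 for all genes. For 8 of 44 the Ph RNAi mean was over 1.5-fold lower, as for 8.55% of all genes. Of these, stg was 1.66-fold lower, Mcm7, SMC2 and ncd 1.53-fold and dup and Klp61F 1.52-fold. The other 2, cid and Orc6, were 2.97-fold and 1.90-fold lower at low signal. A p for this contrast is not among the deposited values and none can be computed from means, so the difference was not tested.

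In total RNA, mostly mature transcripts, the same genes lay around mock after Ph RNAi. Of the 44 genes 18 had a ratio below 1, as did 44.3% of all genes, and the median log2 ratio was 0.047 against 0.068. By the q of the authors' deposited table none of the 44 fell and none rose, where 0.367% and 3.52% of all genes did. Before adjustment, the authors' deposited table gave none of the 44 a p below 0.05 in either direction, where 4.7% of all genes were lower and 13.9% higher. The MCM genes all had total RNA ratios above 1 in the authors' deposited table, from 1.04 for Mcm7 to 1.34 for dpa. BubR1 was at 1.15 and SMC2 at 0.983 in the authors' deposited table. The lowest ratio was that of geminin, 0.548 with p = 0.070 in the authors' deposited table, although its nascent mean was above mock. A p that misses the threshold does not show that total RNA was unchanged.

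Nascent and total RNA thus gave different values for these genes under the Ph RNAi label. Of the 40 genes with a nascent ratio below 1, 24 had a total RNA ratio of at least 1 in the authors' deposited table. Over all genes, 1656 of the 3621 with a nascent ratio below 1 did, which is 21.7% of all measured. Of the 20 lower in nascent RNA with p below 0.05 before adjustment, 14 had a total RNA ratio of at least 1 and 0 were lower in total RNA by that p in the authors' deposited table. Over all genes, 189 of 508 had such a total RNA ratio, 2.48% of all measured, and 74 of 508 were lower in total RNA by that p. The 14 were 8 of 9 replication genes and 6 of 11 mitosis genes. The total RNA log2 ratio was above the nascent one in 37 of 44 genes, where this held for 52.4% of all genes, with a median difference of 0.51 against 0.031. Across the 44 genes nascent and total log2 ratios had a Pearson r of -0.27 and a Spearman rho of -0.21, against 0.54 and 0.36 across all genes, a description of genes measured in shared libraries.

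Under the Sce RNAi label 24 of the 34 genes with a nascent ratio below 1 had a total RNA ratio of at least 1 in the authors' deposited table. Over all genes, 1671 of the 3700 with a nascent ratio below 1 did, which is 21.9% of all measured. The total RNA log2 ratio was above the nascent one in 35 of 44 genes, where this held for 51.9% of all genes, with a median difference of 0.44 against 0.024. CycE shows the pattern, at 0.703 of mock in nascent RNA and 1.89 in total RNA by the authors' deposited table. RnrL does not, at 0.637 and 0.955. Whether nascent and total RNA came from the same cultures is not stated in the material used here.

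**Figure D3:**
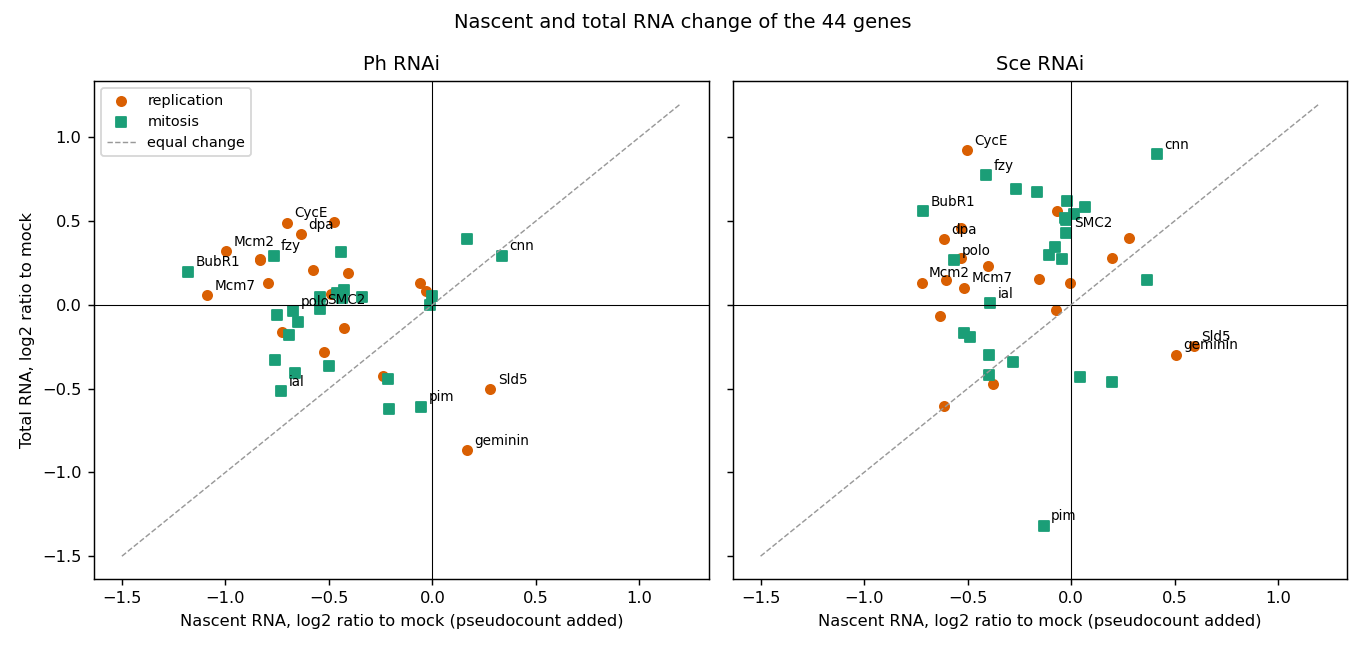
Log2 ratio to mock in total RNA (vertical axis, from the authors' deposited ratios) against that in nascent RNA (horizontal axis, with a pseudocount added) for the 44 genes after Ph RNAi (left) and Sce RNAi (right), with replication genes as orange circles, mitosis genes as green squares and a dashed line where both are equal. After Ph RNAi 37 points lie above the dashed line and after Sce RNAi 35 do.

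After Sce RNAi total RNA was above mock for 13 of 19 replication and 17 of 25 mitosis genes, and for 4179 of 7624 genes. Of the 44 genes 14 had a ratio below 1, as did 45.1% of all genes. The median log2 ratio was 0.25, with 0.15 for replication and 0.30 for mitosis genes, against 0.059 for all genes. By the q of the authors' deposited table none of the 44 rose and none fell, where 0.236% and 0.0131% of all genes did. Before adjustment, the authors' deposited table gave 6 of 44 a p below 0.05 and a higher ratio, where 9.27% of all genes had these, and 0 a lower one, where 2.3% had. The 6 were CycE at 1.89, cnn at 1.86, fzy at 1.71, glu at 1.595, Klp3A at 1.53 and CycB at 1.46 in the authors' deposited table. All 6 motor and scaffold genes and all 3 condensin genes had ratios above 1, with median log2 ratios of 0.43 and 0.58. The lowest ratio was that of the securin gene pim, 0.401 with p = 0.051 in the authors' deposited table.

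After Pc RNAi, for which only total RNA was measured here, calls among the 44 genes were no more frequent than over all genes. The only member that rose was fzy. Its ratio was 1.77 with p = 0.001 and q = 0.037 in the authors' deposited table. The call is marginal, since that q divided by 0.682, its usual share of the Benjamini-Hochberg value, is 0.054, while adjustment of the authors' rounded p gave 0.037. It was the 1 of 44 that rose, where 3.04% of all genes did, and 0 fell, where 0.144% did. Before adjustment, the authors' deposited table gave 3 of 44 a p below 0.05 and a higher ratio, where 11.8% of all genes had these, and 0 a lower one, where 2.62% had. The other 2 were pav at 1.49 and polo at 1.24 in the authors' deposited table. Of the 44 genes 17 had a ratio below 1, as did 46.3% of all genes, and these were 11 of 19 replication and 6 of 25 mitosis genes. The median log2 ratio was -0.22 for replication and 0.31 for mitosis genes, against 0.048 for all genes, and this difference was not tested. The lowest ratio was that of stg, 0.313 with p = 0.1 in the authors' deposited table. The total RNA comparisons all have mock as their denominator, so they are not independent.

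**Figure D4:**
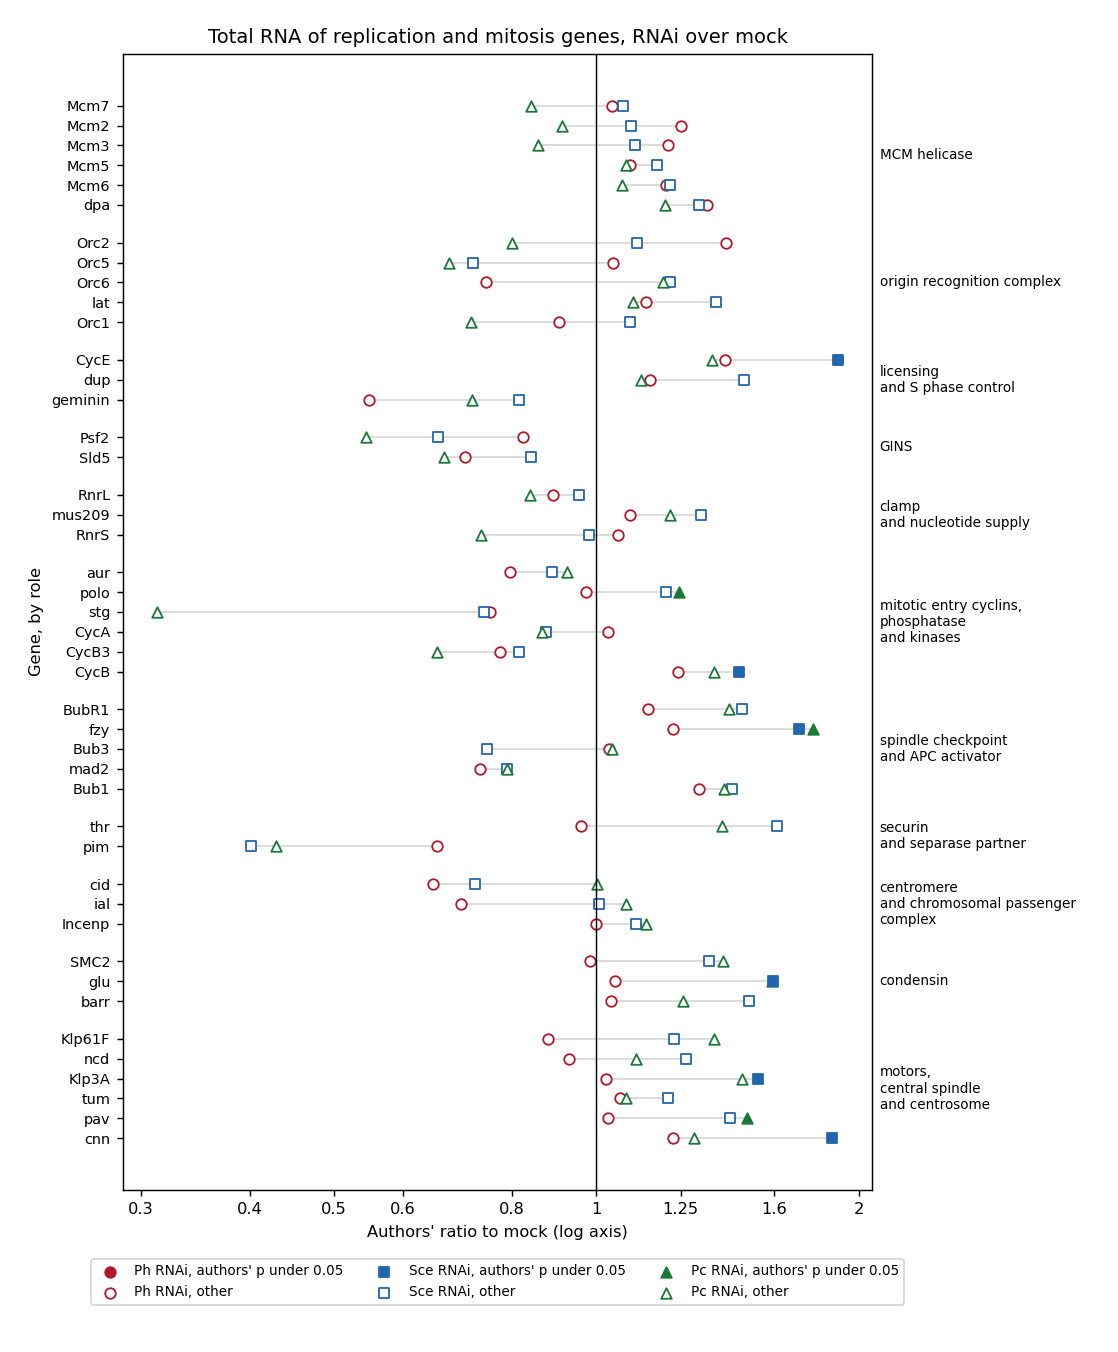
The authors' deposited ratio of total RNA to mock (log axis) for each of the 44 genes, grouped by role, after Ph RNAi (red circles), Sce RNAi (blue squares) and Pc RNAi (green triangles); filled symbols had p below 0.05 before adjustment in the authors' deposited table. No red circle is filled, 6 blue squares and 3 green triangles are, all right of 1, and stg after Pc RNAi and pim after Sce RNAi reach furthest left, at 0.313 and 0.401.

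Genes used as markers of glia, neural stem cells and blood cells also had different nascent means between the groups. The 4 glial markers summed to a nascent signal of 98085 in mock, 224563 under Ph RNAi and 119745 under Sce RNAi. Of them nrv2 rose 4.64-fold under Ph RNAi with q = 0.012 in the authors' deposited table. The gene repo, which defines glia, was at 14.3 times mock, loco at 2.33 times and moody at 0.89 times. The 3 neural stem cell markers summed to 33811, 129326 and 51594. Under Ph RNAi insc was at 4.21, pros at 3.26 and mira at 1.92 times mock. Under Sce RNAi insc was at 1.73, pros at 0.988 and mira at 2.73 times mock. The 7 blood cell markers summed to 4435960 in mock, 1908930 under Ph RNAi and 4916410 under Sce RNAi. Of the mock sum 97.2% came from vkg, Cg25C and ush. The collagen genes vkg and Cg25C were 2.68-fold and 2.60-fold lower, ush 1.69-fold lower and srp at 0.665 of mock, while lz was at 12.2 and Hml at 1.40 times mock. The 2 neuronal markers summed to 61299, 56836 and 59118. By the authors' deposited table, 3 of 4 glial and 2 of 3 stem cell markers were higher under Ph RNAi with p below 0.05 before adjustment, and 4 of 7 blood cell markers were lower and 1 higher. Over all genes 9.82% were higher and 6.66% lower by that p. By q, nrv2 was the only one of these markers called, where 1.69% of all genes rose and 0.787% fell. No measured marker was at 0, the lowest mean being 195 for Hml under Sce RNAi. Of the symbols listed, 2 of 10 neuronal and 3 of 7 stem cell markers were measured. So were 4 of 6 glial and 7 of 10 blood cell markers, and some symbols are alternative names. Group means do not show whether such cells were present, and the part of these cell types in the lower signal of replication and mitosis genes was not tested.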

How the data were processed

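Per the file headers, the authors averaged nascent signal per gene over each group's replicates, and deposited for each RNAi group a ratio to mock with its p-value and q-value. Per the labels' protocols, chromatin-bound RNA was depleted of uncapped and polyadenylated RNA, and native ends were captured for Ion Torrent libraries. SAMtools and bedtools are listed in the submitters' processing notes, while aligner, build, annotation and test were not given in the sources used here. Deposited nascent ratios equalled the quotient of the means within 1% plus 0.001 in all 7624 genes. The 4 columns of total RNA means match no sample and were not used. Nascent log2 ratios, computed with pandas 2.3.3, are log2((RNAi mean + 581)/(mock mean + 581)), 581 being the 10th percentile of the nascent means, which understates changes of low genes. Folds have no pseudocount. Total RNA log2 values are those of the deposited ratio. No filter was applied, although 1 had been planned; 41 of 44 members had a mean above 581, all but Orc6, Psf2 and cid. The formulas were tested on simulated data. Named were all members, and from each further list genes with q under 0.05 and up to 4 with the smallest p under 0.05 per nascent comparison, except 1 chromatin assembly gene, which is only counted. E2f, elav, cac, pros, lz, Hml and moody were added after their values were seen. Members and lists were chosen with earlier results of these data known. The stricter p, the rescaled q and the filter on low values were added after seeing the data, as were the neighbouring genes. Gene positions come from Ensembl annotation, matched for all 44 members, older names through RefSeq. Sequences were not used here.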

Additional observations from a re-analysis of the deposited data

How the results depend on the processing

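With a pseudocount 10 times larger the median log2 ratio under Ph RNAi was -0.28 for all members, -0.22 for replication and -0.31 for mitosis genes, that of replication genes under Sce RNAi was -0.16, and those of Ph RNAi against Sce RNAi were -0.14, -0.11 and -0.19. With a pseudocount of 1 the replication median under Ph RNAi was -0.66. Centred on the median gene, the total RNA median after Ph RNAi was -0.021. With q under 0.1, the authors' deposited table had 5 members lower under Ph RNAi, where 2.37% of all genes were. With p under 0.01 before adjustment, it had 5 lower under Ph RNAi (2.23% of all genes), 2 lower and 0 higher under Sce RNAi (1.51% and 1.36%), and in total RNA 1 higher after Sce RNAi (2.44%) and 1 after Pc RNAi (5.5%). The authors' q was 0.67 of the Benjamini-Hochberg value for nascent Ph RNAi and 0.682 for total Pc RNAi. Divided by that share, 0 members rose after Pc RNAi, and 3 were lower under Ph RNAi at a threshold of 0.1, where 1.38% of all genes were. Quantile normalization, the filter on low values, leaving out Mcm7 and lat, and counting CycE with mitosis moved no median by 0.1 or more and no count by over 1.5 times. Benjamini-Hochberg adjustment of the authors' p, which has 3 decimals, moved no count of members called at 0.05. Under quantile normalization CycB and stg changed sign under Sce RNAi, at -0.029 and -0.0084, as did RnrS between Ph and Sce RNAi, at -0.015. No member changed sign under Ph RNAi with any scaling or pseudocount tried. No paired analysis was possible because the table holds group means, and for that reason no replicate could be left out. The planned search for promoter motifs was not run. Depth per library is unknown.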
